A study of Mus musculus with 6 samples.

Results

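The Gimap genes encode GTPases of immunity-associated proteins, a small family of GTP-binding proteins that is expressed mostly in lymphocytes. In the mouse the genes lie side by side in a single cluster on chromosome 6. The 8 genes of the cluster described here, taken by gene symbol (Gimap1, Gimap3, Gimap4, Gimap5, Gimap6, Gimap7, Gimap8 and Gimap9), were all found among the 22609 rows of the authors' deposited table, and each had been tested there.

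RNA was sequenced from early T cell progenitors of the fetal thymus of C57BL/6 mice, in 3 libraries from wild-type controls and 3 from E2Afl/flHEBfl/flIL7RCre mice, called double knockout (dKO) here. These cells are the most immature thymocytes, sorted without CD4, CD8, lineage markers or CD25 and with CD44 and c-Kit. A YFP gate was added in the dKO sort alone, so gate and genotype cannot be told apart. The floxed genes are Tcf3, which encodes E2A, and Tcf12, which encodes HEB, and the Cre is expressed from the Il7r locus, so deletion is limited to cells with a history of Il7r expression. Fetal age is not in the labels, nor is the source of each library (separate or pooled animals), so p-values rest on a spread that may be partly technical. The study's question, by its title, is how E proteins (the basic helix-loop-helix factors E2A and HEB) and their Id antagonists control the choice between innate and adaptive lymphoid fates.

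Gimap proteins are known chiefly for the survival of lymphocytes. Gimap5 is the gene mutated in the lymphopenic BB rat, Gimap1 is needed for the maintenance of mature T and B cells, and several members have been reported to bind proteins of the Bcl2 family. Within the thymus, transcripts of the family are known to change with stage and to be abundant in mature T cells. E proteins bind DNA at E-boxes, with the letters CANNTG, and prefer the versions CAGCTG and CACCTG, the latter read as CAGGTG on the opposite strand.

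The cluster did not move as a block. In the authors' deposited table all 8 genes differed between the groups at an adjusted p under 0.05, with 3 higher in dKO (Gimap3, Gimap4 and Gimap8) and 5 lower (Gimap1, Gimap5, Gimap6, Gimap7 and Gimap9). Of the 16241 genes tested, 29.0% passed in either direction, 15.1% were higher and 13.8% were lower. Among genes with a mean of at least 100 over both groups the share in either direction was 40.4% (21.2% higher and 19.1% lower). At an adjusted p under 0.01 all 8 members still passed, against 21.8% of tested genes (11.7% higher and 10.2% lower). The log2 changes of the members ran from -1.69 to 3.66 with a median of -0.75, and the median over all tested genes was -0.01. No test over the list was made.

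**Figure D1:**
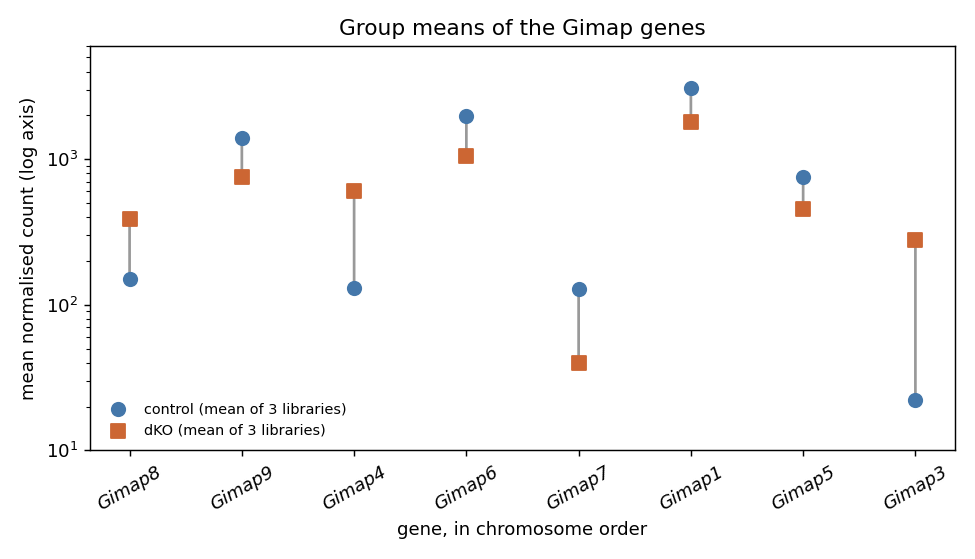
Mean normalised count of each Gimap gene on a log axis, in chromosome order, for control (circles) and dKO (squares), each the authors' mean of 3 libraries. Gimap3, Gimap4 and Gimap8 sit higher in dKO, from 22.0 to 277 in the case of Gimap3, and the other 5 sit lower.

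The promoters of 4 members are shown because they pair a gene that rose with one that fell, both with E-boxes (Gimap4 and Gimap9) and both without (Gimap3 and Gimap1). Each is the 250 bases before the RefSeq transcript start on build GRCm38.p6, written 5′ to 3′ in the direction of transcription, with E-boxes (CANNTG) in capitals. The deposited table carries no coordinates, and the build named by the submitters' processing notes, mm9, differs from that of these windows.
Gimap4, chr6:48684328-48684577, plus strand: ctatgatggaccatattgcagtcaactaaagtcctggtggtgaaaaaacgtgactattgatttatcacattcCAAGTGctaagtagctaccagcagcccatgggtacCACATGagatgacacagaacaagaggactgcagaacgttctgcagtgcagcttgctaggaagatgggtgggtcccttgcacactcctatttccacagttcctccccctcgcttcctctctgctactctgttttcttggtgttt
Gimap9, chr6:48675885-48676134, plus strand: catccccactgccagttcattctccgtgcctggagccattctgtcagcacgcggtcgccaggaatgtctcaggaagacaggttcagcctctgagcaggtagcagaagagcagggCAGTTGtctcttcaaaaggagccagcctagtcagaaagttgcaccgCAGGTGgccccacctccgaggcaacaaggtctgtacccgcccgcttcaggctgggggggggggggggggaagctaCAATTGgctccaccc
Gimap3, chr6:48770852-48771101, minus strand: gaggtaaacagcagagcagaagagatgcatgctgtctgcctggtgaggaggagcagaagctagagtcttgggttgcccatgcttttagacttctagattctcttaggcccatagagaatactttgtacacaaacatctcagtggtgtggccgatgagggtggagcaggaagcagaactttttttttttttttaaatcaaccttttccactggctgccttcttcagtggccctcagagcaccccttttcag
Gimap1, chr6:48738797-48739046, plus strand: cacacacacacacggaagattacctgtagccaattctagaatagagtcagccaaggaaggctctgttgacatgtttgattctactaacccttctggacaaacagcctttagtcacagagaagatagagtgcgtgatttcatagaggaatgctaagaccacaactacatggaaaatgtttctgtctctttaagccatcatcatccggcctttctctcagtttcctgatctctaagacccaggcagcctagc

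All 8 genes matched the RefSeq promoter table, in 9 windows of 300 bases that reach 50 bases past the start, since Gimap8 has 2 starts with overlapping windows. At least 1 CANNTG lay in 7 of the 9 windows, against 72.3% of all 32851 windows of the same length. The windows without one belong to Gimap1, which fell, and Gimap3, which had the largest rise of the cluster. The narrower letters, CAGCTG and also CACCTG with its reverse complement CAGGTG, read on both strands, were in 1 of the 9 windows, against 32.9% of all windows. That match is the CAGGTG of the Gimap9 promoter printed above, whose first base lies at position -90 from the start. A match in these letters is a description and not a binding site, and distal elements were not analysed here.

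**Figure D2:**
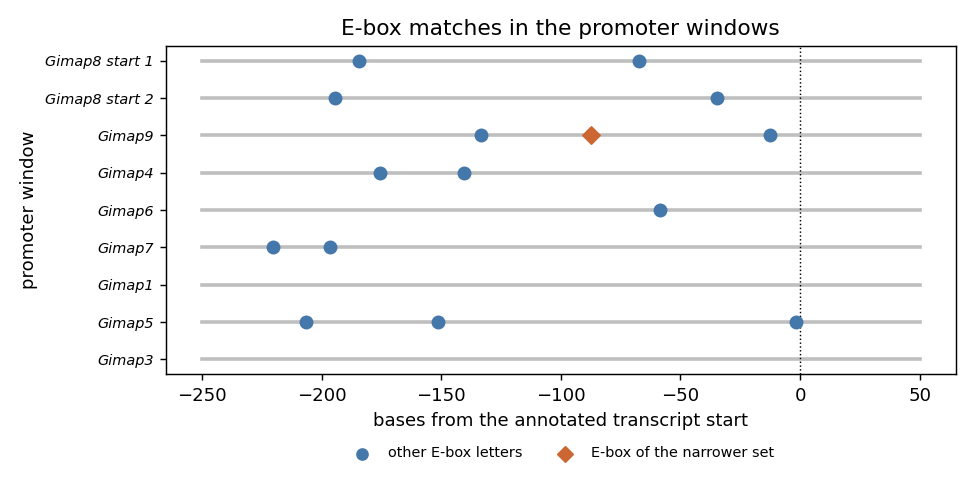
E-box matches along the 9 promoter windows of the Gimap genes, by distance in bases from the annotated start (dotted line), from 250 bases before it to 50 bases after. Circles are CANNTG matches outside the narrower letters and the diamond is the single CAGGTG, at Gimap9, while the lines of Gimap1 and Gimap3 are empty.

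Gimap3 had the largest change. Its product is a membrane-bound member that has been linked to Bcl2 family proteins and, in mice, to the segregation of mitochondrial DNA in blood cells. The deposited values are group means, but for genes of low abundance each mean could be resolved into the whole reads of its 3 libraries, which are named here by their size factors, the depth scaling of each library. In control the normalised counts of Gimap3 were 42.0, 9.45 and 14.6 in the libraries of size factor 1.02, 0.952 and 0.823, from 43, 9 and 12 reads. In dKO they were 196, 341 and 295 in the libraries of size factor 1.16, 1.08 and 1.04, from 226, 367 and 306 reads. The groups did not overlap, and the lowest dKO library stood well above the highest control library.

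The mean of Gimap3 was 22.0 ± 17.5 (SD, n = 3) in control and 277 ± 74.5 (SD, n = 3) in dKO, a 12.6-fold rise with an adjusted p of 5.51e-12 in the authors' deposited table. An exact permutation test on the recovered values gave a two-sided p of 0.1, the smallest that 3 against 3 libraries allow, for Gimap3 as for Gimap7 and for both sets of Gimap4. A single control library, that of size factor 1.02, held most of the control reads, and without it the rise was 23.1-fold. Among the 2460 genes that rose, 4.02% had a larger fold change than Gimap3.

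Gimap4, reported to speed the execution of cell death in T cells, rose 4.62-fold from a mean of 131 to 603 (adjusted p = 2.18e-08) in the authors' deposited table. Its control libraries stood at 186, 86.1 and 119 in the order of size factors 1.02, 0.952 and 0.823, a mean of 131 ± 51.1 (SD, n = 3). The dKO mean had 2 possible sets of reads, which give 465, 600 and 746, or else 811, 253 and 746, for size factors 1.16, 1.08 and 1.04. In either set every dKO library was above every control library.

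Gimap8, unusual in the family for carrying several GTP-binding domains in one protein, rose 2.58-fold from 150.4 to 387 (adjusted p = 1.25e-06) in the authors' deposited table. The dKO libraries stood at 356, 344 and 461, a mean of 387 ± 64.5 (SD, n = 3). The control mean had 2 possible sets, 105, 158 and 188 or else 350.4, 54.6 and 46.2, for size factors 1.02, 0.952 and 0.823. Under the former the groups did not overlap. Under the latter the highest control library exceeded the lowest dKO library, and the rise without that control library, of size factor 1.02, was 7.69-fold. The exact permutation test gave a two-sided p of 0.1 for the former and 0.2 for the latter.

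Gimap7, whose product can stimulate GTP hydrolysis through dimers within the family, had the deepest fall. Its control libraries stood at 112, 169 and 104 (115, 161 and 86 reads) and its dKO libraries at 31.1, 36.3 and 52.0 (36, 39 and 54 reads), in the same orders of size factors. The groups did not overlap. The means were 129 ± 35.3 and 39.8 ± 10.9 (SD, n = 3 each), 3.23-fold lower in dKO with an adjusted p of 0.000991 in the authors' deposited table. Gimap3, Gimap4 and Gimap7 thus had no overlap between the groups under any set of reads. For comparison, 40.3% of the 3104 genes with means of up to 300, a mean over both groups of at least 10 and a single solution in both groups had none (21.3% higher and 19.0% lower in dKO). Few genes with a control mean above 200 are in that comparison. From 200 to 300, 1.87% of control values had a single solution, against 97.5% of dKO values, so its 2 directions were not sampled alike. Gimap4 lies outside that comparison, since its dKO mean is above 300 and has 2 possible sets.

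**Figure D3:**
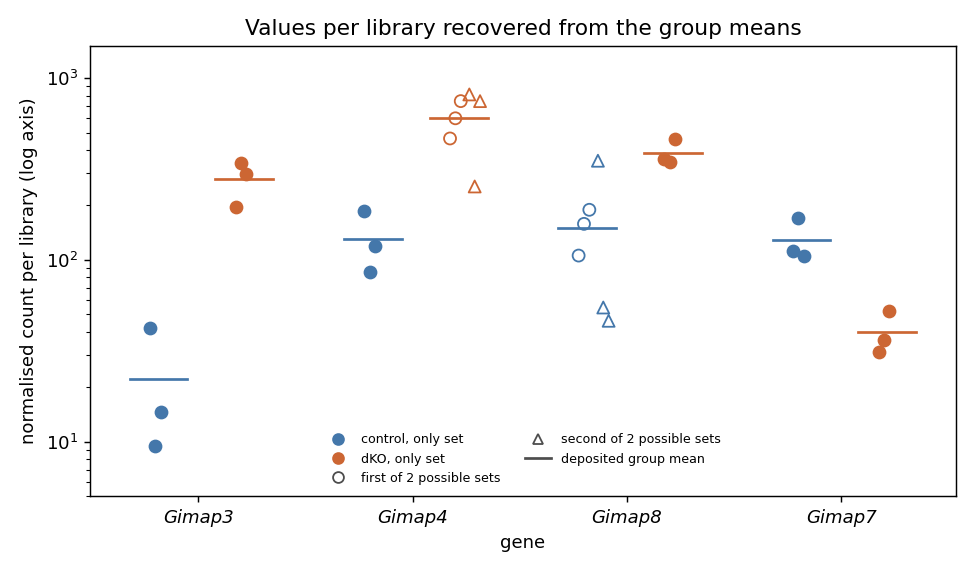
Normalised counts per library on a log axis for the 4 Gimap genes whose group means resolved into at most 2 sets of whole reads in each group. Filled points are the only set, open circles and triangles are alternative sets, and bars are the deposited means: the dKO points of Gimap3 (196 to 341) lie above its control points (9.45 to 42.0), and those of Gimap7 (31.1 to 52.0) lie below (104 to 169).

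The other 4 members that fell did so by similar amounts, from 1.65-fold to 1.90-fold. They include the most abundant genes of the cluster. In the authors' deposited table Gimap1 went from 3097 to 1812, 1.71-fold lower (adjusted p = 1.45e-09). Gimap6, whose product binds the autophagy protein Gabarapl2, went from 1989.5 to 1048, 1.90-fold lower (adjusted p = 1.27e-10), in the authors' deposited table. Gimap9 went from 1406 to 759, 1.85-fold lower (adjusted p = 4.93e-08), in the authors' deposited table.

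Gimap5, a lysosomal membrane protein of lymphocyte survival, went from 750.5 to 456, 1.65-fold lower (adjusted p = 0.000552), in the authors' deposited table. Its dKO libraries were close together, at 491, 437 and 438 for size factors 1.16, 1.08 and 1.04. The control means of Gimap1, Gimap5, Gimap6 and Gimap9 were too high to be resolved into single libraries, with 7 possible sets of reads for Gimap5 and 30 for Gimap9, so their spread and overlap are not given. Gimap9 in dKO had 2 possible sets, 751, 746 and 781 or else 1098, 399 and 781.

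**Figure D4:**
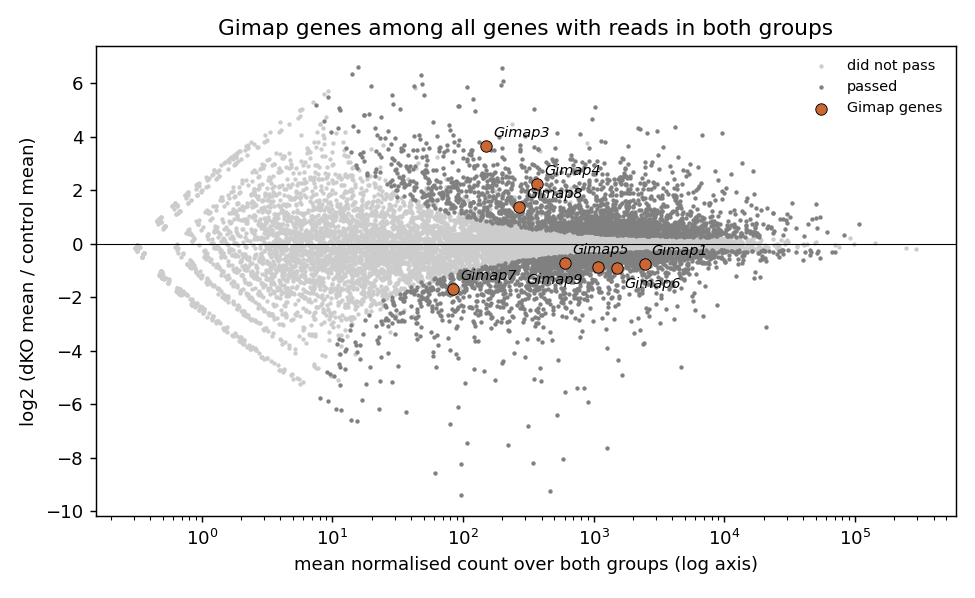
Log2 of the dKO mean over the control mean against the mean normalised count over both groups (log axis) for genes with reads in both groups, dark where the authors' adjusted p was under 0.05. Gimap3, Gimap4 and Gimap8 lie above 0 at 3.66, 2.21 and 1.36, and the members that fell lie between -1.69 (Gimap7) and -0.72 (Gimap5).

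The rises and falls changed the make-up of the cluster's transcripts. To compare levels between genes, means were divided by the exon length of each gene in GENCODE M21, and values in this paragraph are mean normalised counts per kb of exon. In control the order was Gimap1 (1008), Gimap9 (856), Gimap6 (569), Gimap5 (181), Gimap4 (71.1), Gimap7 (55.3), Gimap8 (40.6) and Gimap3 (8.54), a 118-fold span. In dKO the order was Gimap1 (589.6), Gimap9 (462), Gimap4 (328), Gimap6 (299.7), Gimap5 (109.8), Gimap3 (108), Gimap8 (105) and Gimap7 (17.1), a 34.4-fold span. Gimap1 and Gimap9 led in both groups, Gimap4 moved from the fifth place to the third, and Gimap3 left the last place to Gimap7.

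Neighbours in that order were not all distinct. Per kb, the dKO libraries of Gimap5 (105 to 118), Gimap3 (75.9 to 132) and Gimap8 (93.0 to 125) overlapped. The control libraries of Gimap4 (46.9 to 101) and Gimap7 (44.9 to 72.7) also overlapped, and those of Gimap7 overlapped with Gimap8 in either of its sets (28.5 to 50.9, or 12.5 to 94.7). Gimap8 overlapped with Gimap3 (3.67 to 16.3) in its latter set alone. In dKO, Gimap9 and Gimap4 did not overlap in the former sets of both (454 to 476 and 253 to 406) but did in the latter sets (243 to 669 and 138 to 442). Control libraries were not resolved for the genes above these, nor dKO libraries for Gimap1 and Gimap6, so whether Gimap4 and Gimap6 differ in dKO beyond their spread is not known. Summed over the 8 genes, the level per kb was 2789 in control and 2019 in dKO, 1.38-fold lower. The 3 genes that rose made up 4.31% of that sum in control and 26.8% in dKO.

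Genes of both directions were interspersed along the chromosome. In RefSeq the order is Gimap8, Gimap9, Gimap4, Gimap6, Gimap7, Gimap1, Gimap5 and Gimap3, and of the 7 adjacent pairs 4 had members that moved in opposite directions. Gimap6, Gimap7, Gimap1 and Gimap5 formed a run of falling genes, Gimap9 fell between Gimap8 and Gimap4, which rose, and Gimap3 rose at the far end. Gimap6 and Gimap3 are on the minus strand and the other 6 on the plus strand, so each strand held genes of both directions.

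The genes around the cluster were lower or did not pass. Of the 5 nearest tested genes on each side, 0 rose, 6 fell and 4 missed the threshold in the authors' DESeq test, against 13.8% lower among all tested genes. At an unadjusted p under 0.05 in that test, 0 rose and 7 fell, against 2854 lower of all 16241 tested genes. Before Gimap8, the nearest was AI854703, with control libraries at 235, 197 and 180 (size factors 1.02, 0.952 and 0.823) and dKO libraries at 28.5, 52.1 and 56.8 (1.16, 1.08 and 1.04), 4.45-fold lower (adjusted p = 1.37e-07 in the authors' deposited table). Gm5111 stood at 142, 139.7 and 135 in the control libraries and at 31.1, 9.30 and 15.4 in the dKO libraries, 7.45-fold lower (adjusted p = 8.96e-08 in the authors' deposited table). Its fall was 11.2-fold without the dKO library of size factor 1.16. Neither gene had overlapping groups.

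Between them lie Repin1, a zinc finger protein gene that fell 3.46-fold from 1773 to 512 (adjusted p = 8.88e-31), and Zfp775, which fell 1.86-fold from 497 to 267 (adjusted p = 0.000427), in the authors' deposited table. Lrrc61, the fifth on that side, had means of 339.9 and 274 with an adjusted p of 0.404 in the authors' deposited table. After Gimap3, Tmem176b, a membrane protein gene, fell 1.91-fold from 1909.8 to 998 (adjusted p = 1.19e-10), while its neighbour Tmem176a had means of 539.8 and 485 (adjusted p = 0.661) in the authors' deposited table. Igf2bp3, a fetal RNA-binding protein gene, fell 1.35-fold (adjusted p = 0.000613) in the authors' deposited table. Neither Gpnmb (a mean of 0 against 3.46, adjusted p = 0.595) nor 2410003K15Rik (504 against 356, adjusted p = 0.0620) passed in the authors' deposited table.

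**Figure D5:**
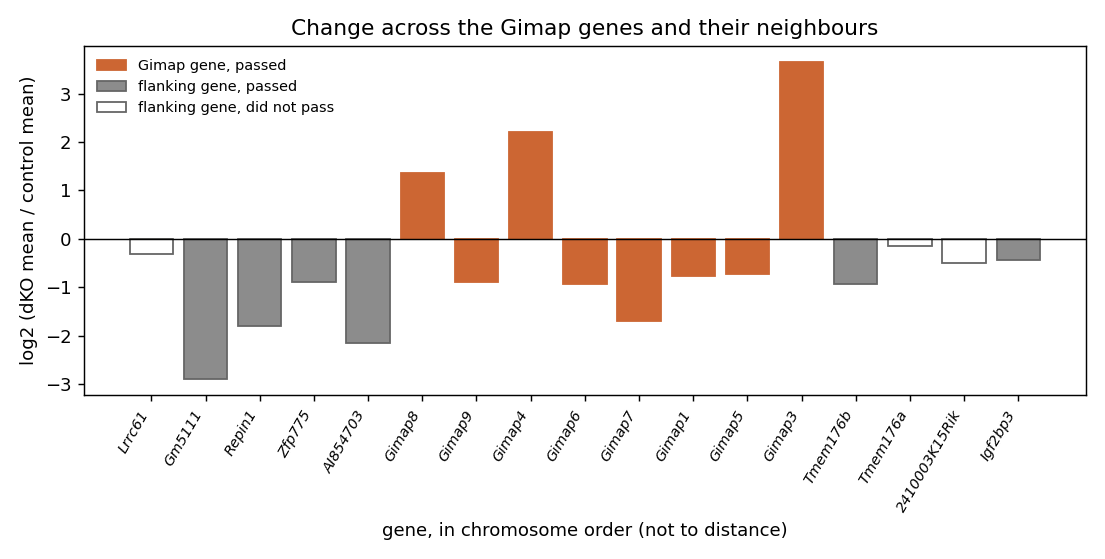
Log2 of the dKO mean over the control mean for the 8 Gimap genes (orange) and 9 of their 10 flanking genes (grey where the authors' adjusted p was under 0.05, open where not), in chromosome order and not to distance. Gimap8, Gimap4 and Gimap3 are the bars above 0, and Gpnmb is left out because it was listed at 0 in control.

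Genes of the processes to which Gimap proteins are linked moved in part. Of 21 genes of the Bcl2 family and the mitochondrial death pathway, 8 rose and 2 fell, while 11 missed the threshold, so 47.6% passed, against 29.0% of all tested genes and 40.4% of genes whose mean is 100 or more. Their median log2 change was 0.35. The survival genes Bcl2 (2.30-fold, from 2025 to 4667, adjusted p = 4.65e-09) and Bcl2l1 (1.71-fold, from 2141 to 3658, adjusted p = 3.14e-10) rose in the authors' deposited table. Death-promoting members rose as well, among them Bcl2l11, which encodes Bim (1.80-fold, from 663 to 1189, adjusted p = 8.08e-06), and Bik (8.44-fold, from 22.6 to 191, adjusted p = 2.5e-07), in the authors' deposited table. Bid, a death-promoting member, was among those that fell (1.31-fold, from 2139.5 to 1633, adjusted p = 0.0437) in the authors' deposited table.

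Of 15 autophagy genes around the ATG8 family, 3 rose, 1 fell and 11 did not pass, so 26.7% passed, close to the 29.0% of all tested genes. Gabarapl2, the partner of Gimap6, rose 1.82-fold from 911 to 1655 (adjusted p = 1.71e-08), opposite to Gimap6, in the authors' deposited table. Its relative Gabarapl1 fell 3.55-fold from 1293 to 364 (adjusted p = 2.11e-19) in the authors' deposited table. A list of immune GTPases outside the Gimap family, mostly interferon-inducible (Irg, Gbp and Mx genes), had 18 tested members. Of these, 10 rose, 0 fell and 8 missed the threshold of the authors' DESeq test. Among all tested genes 15.1% were higher and 13.8% lower (21.2% and 19.1% at a mean of at least 100). At an unadjusted p under 0.05 in that test, 11 of the list rose and 0 fell, against 3050 higher and 2854 lower of all 16241 tested genes. The median log2 change of the list was 1.49. Igtp was 3.59-fold higher (adjusted p = 3.16e-05) and Irgm1 2.74-fold higher (adjusted p = 0.00117) in the authors' deposited table. The difference between these genes and the Gimap genes was not tested.

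Genes of mature and naive T cells, in which Gimap transcripts are abundant, also split. Of 20 such genes, 11 rose, 8 fell and 1 missed the threshold, against 15.1% higher and 13.8% lower among all tested genes (21.2% and 19.1% at a mean of at least 100). In the authors' deposited table Klf2 rose 7.08-fold (adjusted p = 0.00676), S1pr1 3.60-fold (adjusted p = 3.6e-10) and Cd28 9.80-fold (adjusted p = 2.57e-57), all genes of circulating T cells. Cd5 fell 7.96-fold (authors' adjusted p = 5.79e-17) and Cd3e 3.31-fold (authors' adjusted p = 1.24e-14) in the authors' deposited table. In sorted bulk samples, fewer cells of a type and less RNA per cell cannot be told apart, and this holds for the Gimap genes too.

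The labels were checked against markers and the deleted genes. Tcf3 fell to 4.07% and Tcf12 to 14.6% of control in the authors' deposited table. All 11 progenitor markers found in the table were expressed, at means of 391 to 14094 in control and 99.1 to 22961 in dKO, and 7 of them fell and 3 rose. Beside these and the marker counts that follow, 15.1% of all tested genes were higher and 13.8% lower (21.2% and 19.1% at a mean of at least 100). Of the genes the gate excludes, Cd8b1 was at 1.10 and 0.288 and Cd8a at 9.51 and 27.2 in the authors' deposited table. Cd4 was higher than both, at 104 in control and 34.8 in dKO, and fell 2.99-fold (adjusted p = 0.0101) in the authors' deposited table, whereas Il2ra, the CD25 gene, stood at 8417 and 8536 in cells sorted as CD25-negative. The B cell genes Pax5 and Ms4a1 and the endothelial gene Cdh5 were at 0 in both groups, and Tek had no more than 3 reads in any library. The summed levels of the marker lists, in normalised counts, went from 438 to 116 for B cells, 13539 to 9709 for mature T cells (4 of 7 rose, 3 fell), 5542 to 10059 for NK cells (6 of 6 rose) and 17843 to 73626 for innate lymphoid cells (6 of 7 rose). They went from 8841 to 2553 for myeloid cells (1 of 6 rose, 3 fell), 1189 to 122 for erythroid cells (1 of 4 tested fell) and 2878 to 2446 for endothelial and stromal cells (1 of 7 tested rose, 1 fell). Endothelium also expresses Gimap genes, and its gene Kdr had no reads in control and stood at 6.92, 11.2 and 30.8 in the dKO libraries of size factor 1.16, 1.08 and 1.04 (adjusted p = 0.0112 in the authors' deposited table). The part of these cell types in the Gimap changes was not tested.

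The control library of size factor 1.02, which had the most Gimap3 and Gimap4 of the control libraries, was compared on the NK cell markers whose control reads could be resolved, all but Nkg7 of the 6. It was the highest control library for Klrb1c, an NK receptor gene (31.2 against 4.20 and 3.64 for size factors 0.952 and 0.823), and Tbx21, which encodes the factor T-bet (57.6 against 36.8 and 42.5). It was not the highest for Eomes (52.7 against 56.7 and 15.8), the perforin gene Prf1 (43.9 against 68.3 and 69.2) or Ncr1 (0 against 11.6 and 4.86). The part of this library's make-up in its Gimap values was not tested.

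Reads of related or overlapping genes can be split or lost in counting. Of the distinct 50-base stretches of Gimap3 transcripts in GENCODE M21, 7.52% also occur in Gimap5, and 4.53% of those of Gimap5 occur in Gimap3, the only pair of members that shares any. Gimap1 shares 32.4% of its stretches with Gimap1os, a transcript on the opposite strand, and whether counting used strand is not given in the sources used here, so the value of Gimap1 is uncertain to that extent. Gimap1, Gimap5, Gimap7 and Gimap3 also share 4.78%, 2.50%, 1.39% and 0.32% of their stretches with a read-through gene model, Gm28053. Gimap3 shares a further 0.63% with the gene model Gm38409. None of the stretches of Gimap4, Gimap8 or Gimap9 occurs in another gene.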

How the data were processed

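RNA sequencing of 6 libraries was used. Per the labels' protocols, total RNA of sorted cells was amplified with a low-input SMARTer kit and sequenced on an Illumina HiSeq. The submitters' processing notes name the mm9 build along with TopHat2 2.0.14, bcl2fastq 1.8.4 and version 2 of DESeq, without their roles. The gene counter is not given in the sources used here. Per the file headers, the signal values are base means of each group. They were taken here as means of counts divided by size factors, which the headers do not state. The deposited fold is the ratio of those means. Each p-value, raw or adjusted, was deposited by the authors. The log2 column holds spreadsheet error cells and was not used, so log2 changes were computed from the means.

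A gene was called at the authors' adjusted p under 0.05. Whole reads per library were solved from each mean as a sum of reads weighted by size factor, within the rounding of the deposited value. From a mean of 10 to 100, 100% of values (control and dKO) had exactly 1 solution. Between 100 and 200 it was 56.6% of control and 100% of dKO values, and between 200 and 300 it was 1.87% and 97.5%. The solver was tested on simulated means built with the same size factors and number of libraries. That test could therefore not detect an error in either. Depth in megareads was estimated at about 18.2 to 22.6 (control libraries) and 24.3 to 27.0 (dKO libraries). Each estimate is the summed means of the group times the size factor of the library. It counts only reads assigned to genes and assumes equal normalised totals within a group. Amplified reads are not independent molecules. Solved libraries carry no replicate number.

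Gimap genes, flanking genes and lists were chosen with earlier results of these data known. Named genes were all members, the 5 nearest tested genes on each side, the deleted genes and list members past the threshold. Gpnmb, Lrrc61, Tmem176a and 2410003K15Rik are named as flanking genes. Markers that did not pass, and the library values of NK cell markers, were chosen after their values were seen. A septin list was not used, since a spreadsheet turned 25 gene names into dates. Count models per library were not run, since the table holds group means, and the authors' test was used. Exact permutation tests used scipy 1.17.1 in Python 3.11.15. Protein sequences were not used here, and some members of the lists are not reported here by name.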

Additional observations from a re-analysis of the deposited data

How the results depend on the processing

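All 8 calls were kept, 3 higher and 5 lower, at an adjusted p under 0.01 and with p-values adjusted again over the 12896 genes with a mean of at least 10 (largest adjusted p of a member 0.000787). Neither step tests stability. The largest adjusted p of a member in the authors' deposited table was 0.000991, already under 0.01. Adjusting over fewer genes lowered the adjusted p of every member. Rescaling group means to equal sums, or centring on the median of genes with a mean of at least 100, moves every log2 change by a constant (-0.08 and -0.01) and leaves the p-values as they are, so neither could change a call here and neither bears on stability. Restricting to genes with a mean of at least 100 removed Gimap7 and left 7. Each library was left out in turn for the 4 members whose means could be resolved (Gimap3, Gimap4, Gimap7 and Gimap8), under every possible set of reads. Of the 36 values, some of them repeated between alternative sets, 0 reversed. Groups without overlap cannot reverse when a library is left out, and only the latter control set of Gimap8 overlapped with dKO. The count of reversals therefore bears on that set alone. As log2 of dKO over control, the range was 3.29 to 4.53 for Gimap3, 1.94 to 2.58 for Gimap4, -1.93 to -1.44 for Gimap7 and 0.94 to 2.94 for Gimap8. The other 4 members could not be checked in this way. With the narrower E-box letters, 1 promoter window matched in place of 7, because fewer letters count as a match. Using only the 250 bases before the start, an alternative added after the data were examined, left 7. No member was at 0, so the floor for zeros was not needed. No paired analysis was possible because the table holds group means and the resolved libraries carry no replicate numbers. Count models were not run for the same reason, and the planned protein comparison was not run.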
